A study of Mus musculus with 9 samples.

Results

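The NF-kB subunits and feedback genes described here are 10 genes, chosen by name from a list: Nfkb1, Nfkb2, Rel, Relb, Nfkbia, Nfkbie, Nfkbiz, Bcl3, Tnfaip3 and Birc3. All 10 were found among the 26214 genes of the table, and all 10 passed the filter on low values (a mean of at least 10 over 8 libraries), which left 13601 genes for testing. RNA was sequenced from adipose stromal cells (ASCs) of the subcutaneous adipose tissue and from fibro-adipogenic progenitors (FAPs) of the quadriceps muscle, taken on day 1 after an injection into the quadriceps. Glycerol damages the muscle fibres of the injected quadriceps, and NaCl is the control injection. ASCs and FAPs were isolated with magnetic beads as CD31-/CD45-/Sca-1+ cells. The labels give the strain as C57Bl/6, and the study's methods name C57Bl/6 J males of 8 to 12 weeks. The study's reporting summary says that the triplicates of a cell type came out of a pool of cells of 3 animals, so libraries of a group may share animals. The groups were 3 ASC libraries and 2 FAP libraries of mice given NaCl, 3 FAP libraries of mice given glycerol (called injured FAPs) and, in no test, 1 library of CD31+CD45+ cells from a glycerol-injected quadriceps. The study's methods describe triplicates, and 2 libraries of FAPs after NaCl were analysed here. Muscle was digested with other enzymes than adipose tissue, so tissue, digestion and cell type cannot be told apart in any difference between ASCs and FAPs.

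NF-kB is a family of dimeric transcription factors built from the subunits p50 (Nfkb1), p52 (Nfkb2), RelA (Rela), c-Rel (Rel) and RelB (Relb), held in the cytoplasm of resting cells by IkB proteins. Signals from TNF, IL-1 and Toll-like receptors activate IkB kinases, IkB is degraded, and the freed dimers switch on genes of chemokines, cytokines and adhesion molecules, together with genes that end the response, such as those of IkB-alpha (Nfkbia) and A20 (Tnfaip3). In damaged muscle, stromal cells take part in the early inflammatory phase of repair.

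Since several of these genes are known targets of NF-kB itself, their promoters are shown for one member of each role, by the first window listed. RefSeq promoter windows (GRCm38.p6, 250 bases before to 50 after the start site) were found for 7 of the 10 members, in 10 windows, and Nfkb1, Relb and Nfkbiz have no entry in that table. The windows were searched on both strands for the kB pattern GGGANNNNCC and for the wider pattern GGGNNNNNCC, in which every match of the first pattern is included. The capitals mark matches of GGGANNNNCC on either strand, and all sequences run 5′ to 3′ on the strand of the gene. The subunit gene Nfkb2 is shown at chr19:46304487-46304786 (plus strand), the classical IkB gene Nfkbia at chr12:55492598-55492897 (minus strand), the nuclear IkB gene Bcl3 at chr7:19822706-19823005 (minus strand), the deubiquitinase gene Tnfaip3 at chr10:19015361-19015660 (minus strand) and the ubiquitin ligase gene Birc3 at chr9:7873121-7873420 (minus strand).
Nfkb2: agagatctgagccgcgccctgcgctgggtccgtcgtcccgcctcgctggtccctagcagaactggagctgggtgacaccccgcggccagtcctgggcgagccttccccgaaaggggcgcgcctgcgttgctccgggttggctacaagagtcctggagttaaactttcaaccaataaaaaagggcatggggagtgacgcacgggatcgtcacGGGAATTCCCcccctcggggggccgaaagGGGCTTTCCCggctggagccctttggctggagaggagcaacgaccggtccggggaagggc
Nfkbia: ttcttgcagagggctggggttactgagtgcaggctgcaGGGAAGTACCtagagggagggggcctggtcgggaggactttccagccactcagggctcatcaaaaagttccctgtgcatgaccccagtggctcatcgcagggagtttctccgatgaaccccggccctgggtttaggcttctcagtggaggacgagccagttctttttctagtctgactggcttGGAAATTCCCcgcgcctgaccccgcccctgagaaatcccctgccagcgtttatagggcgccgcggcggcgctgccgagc
Bcl3: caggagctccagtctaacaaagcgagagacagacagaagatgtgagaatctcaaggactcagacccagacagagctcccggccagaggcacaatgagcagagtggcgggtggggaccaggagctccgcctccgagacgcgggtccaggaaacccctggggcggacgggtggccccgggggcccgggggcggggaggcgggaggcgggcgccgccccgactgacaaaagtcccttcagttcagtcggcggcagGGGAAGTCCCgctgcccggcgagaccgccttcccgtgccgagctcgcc
Tnfaip3: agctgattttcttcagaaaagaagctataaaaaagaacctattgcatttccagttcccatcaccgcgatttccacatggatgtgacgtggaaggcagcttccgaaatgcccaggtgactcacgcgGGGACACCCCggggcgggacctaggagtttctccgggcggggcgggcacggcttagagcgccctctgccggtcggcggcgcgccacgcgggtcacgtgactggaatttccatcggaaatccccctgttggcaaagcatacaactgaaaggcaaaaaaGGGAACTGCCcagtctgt
Birc3: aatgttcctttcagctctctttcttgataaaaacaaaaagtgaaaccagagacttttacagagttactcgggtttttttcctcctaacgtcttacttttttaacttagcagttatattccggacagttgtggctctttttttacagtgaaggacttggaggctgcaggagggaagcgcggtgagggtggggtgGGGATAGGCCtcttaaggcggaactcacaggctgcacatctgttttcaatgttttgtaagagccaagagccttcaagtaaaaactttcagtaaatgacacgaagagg

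The pattern GGGANNNNCC occurred in a window of 6 of the 7 members, and 22.9% of the 27025 gene symbols in the promoter table have a window with it (20.7% of 32851 windows). In the first of 3 Nfkb2 windows, GGGAATTCCC lay 29 bases before the start site and reads the same on both strands, and GGGAAAGCCC on the minus strand ended at the start site. The other 2, which overlap each other, held GGGACATTCC, GGGAGGGTCC and, in both, GGGACTTTCC. The Nfkbia window held GGGAATTTCC, on the strand opposite to the gene, 19 bases before the start site and GGGAAGTACC 202 bases before it. The single window of Rel held GGGAAATCCC 82 bases before the start site. In Birc3, GGGATAGGCC lay 47 bases before the start site, and in Bcl3 GGGAAGTCCC lay after it. In the first of 2 Tnfaip3 windows GGGACACCCC lay 115 bases before the start site and GGGAACTGCC after it, and the second held GGGAATAACC 79 bases before its start site. The Nfkbie window had no match of GGGANNNNCC and 3 of the wider pattern, of which 2 overlap on opposite strands. The wider pattern is held at least once by 50.8% of all windows. These matches describe the letters of the windows, and binding was not measured.

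In the GENCODE M21 annotation (GRCm38), the members lie on 9 chromosomes, with Relb at chr7:19606217-19629438 and Bcl3 at chr7:19808462-19822770 on the same one, both on the minus strand. Nfkbia is the most compact, with 3238 bases at chr12:55489410-55492647, and Nfkb1 the longest, with 106893 bases at chr3:135584655-135691547. For 7 members no other annotated gene overlaps. Psd, on the opposite strand, overlaps the 3′ end of Nfkb2 and had at most 97.5 normalized values in the 8 libraries, and an antisense gene within Bcl3, Gm16174, had at most 9.51. The overlapping genes Gm43430 (within Nfkb1), AC114539.1 (at Nfkb2) and Gm16175 (within Bcl3) were not analysed here. The strand setting of the counting is not given in the sources used here, so reads of overlapping genes cannot be told apart.

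The sort was checked by marker genes. The 8 stromal markers (Ly6a, Pdgfra, Cd34, Thy1, Pdpn, Col1a1, Col3a1 and Dcn) were above 0 in every library, with summed normalized values of 669560 to 749126 in injured FAPs, 1539651 and 1670352 in FAPs and 2750504 to 3159525 in ASCs. Col1a1, Col3a1 and Dcn made up most of these sums, so the sums follow matrix genes more than the markers of the sort. In injured FAPs against FAPs, 2 of the 8 were called higher by limma (Ly6a, which encodes Sca-1, at 0.81 on the log2 scale, and Pdpn at 2.77), 4 were lower (Cd34, Col1a1, Col3a1 and Dcn) and 2 were not called. Of all genes, 24.9% were called higher and 27.7% lower in this comparison. With quantile normalization Col1a1 and Col3a1 were not called. In the CD31+CD45+ library the 8 stromal markers summed to 64160, while 10 endothelial markers summed to 316592 (most abundant Cdh5), 6 smooth muscle and pericyte markers to 77669 (Rgs5), 12 leukocyte markers to 33838 (Cd74) and 7 satellite cell and muscle fibre markers to 3151 (Acta1). Of the 12 leukocyte markers, 9 were at 0 in both FAP libraries, Ptprc (which encodes CD45), Lyz2 and Cd74 among them. All 12 were above 0 in each injured FAP library, where they summed to 752, 3368 and 651, beside 265 and 497 in FAPs and 505, 432 and 393 in ASCs. Injured FAP replicate 2 stood above the other libraries of sorted stromal cells in this sum.

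Among the subunits, Nfkb1, which encodes the p105 precursor of p50, had normalized values (reads divided by a size factor per library) of 2563 and 2785 in the FAP libraries, 4786, 4138 and 4635 in the injured FAP libraries and 30893, 16225 and 18996 in the ASC libraries. Nfkb2, which encodes the p100 precursor of p52, had 1251 and 1539 in FAPs, 3150, 3094 and 2641 in injured FAPs and 6093, 4918 and 3992 in ASCs. For both genes the 3 groups did not overlap, with FAPs lowest and ASCs highest. ASC replicate 1 was the highest library for both, and the ASC libraries were the most spread for Nfkb1, with a coefficient of variation of 35.4% against 7.51% in injured FAPs.

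Rel, which encodes c-Rel, a subunit best known from lymphocytes, had normalized values of 293 and 308 in FAPs, 622, 557 and 613 in injured FAPs and 1668, 1662 and 1786 in ASCs. Relb, which encodes RelB, the partner of p52 in the alternative pathway, had 633 and 605 in FAPs, 1168, 1155 and 982 in injured FAPs and 2425, 2009 and 1817 in ASCs. Again FAPs were lowest and ASCs highest, without overlap. Rela, the subunit gene outside the list, kept another order: its normalized values were 3128 and 3043 in FAPs, 2851, 2726 and 2525 in injured FAPs and 9734, 7260 and 8152 in ASCs, and the injured FAP libraries lay just below both FAP libraries.

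The classical IkB proteins hold NF-kB dimers in the cytoplasm. Nfkbia, which encodes IkB-alpha, had normalized values of 3695 and 3121 in FAPs, 16752, 14488 and 14348 in injured FAPs and 13477, 17030 and 11875 in ASCs. Nfkbie, which encodes IkB-epsilon, had 255 and 287 in FAPs, 789, 718 and 667 in injured FAPs and 599, 659 and 429 in ASCs. For these genes injured FAPs reached the level of ASCs: the 2 groups overlapped for Nfkbia, and for Nfkbie the lowest injured FAP library lay just above the highest ASC library.

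The nuclear IkB proteins bind NF-kB dimers in the nucleus and can raise the transcription of selected targets. Nfkbiz, which encodes IkB-zeta, had normalized values of 3133 and 3083 in FAPs, 7832, 7226 and 6835 in injured FAPs and 7851, 10526 and 9812 in ASCs. Bcl3, whose protein binds dimers of p50 or p52, had 1952 and 1872 in FAPs, 3689, 3101 and 2890 in injured FAPs and 9859, 6963 and 7044 in ASCs. The groups did not overlap for either gene, although injured FAP replicate 1 and ASC replicate 1 were nearly level for Nfkbiz.

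The last pair encodes ubiquitin enzymes. Tnfaip3, which encodes A20, a ubiquitin-editing enzyme that ends signalling from TNF and Toll-like receptors, had normalized values of 1617 and 1243 in FAPs, 5678, 5527 and 4968 in injured FAPs and 2482, 5973 and 3088 in ASCs. Birc3, which encodes cIAP2, a ubiquitin ligase of the TNF receptor complex, had 962 and 756 in FAPs, 2146, 1841 and 2004 in injured FAPs and 4873, 6446 and 5310 in ASCs. ASC replicate 2 was the only ASC library in which Tnfaip3 reached the level of injured FAPs, and for Birc3 every ASC library was above every injured FAP library.

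**Figure D1:**
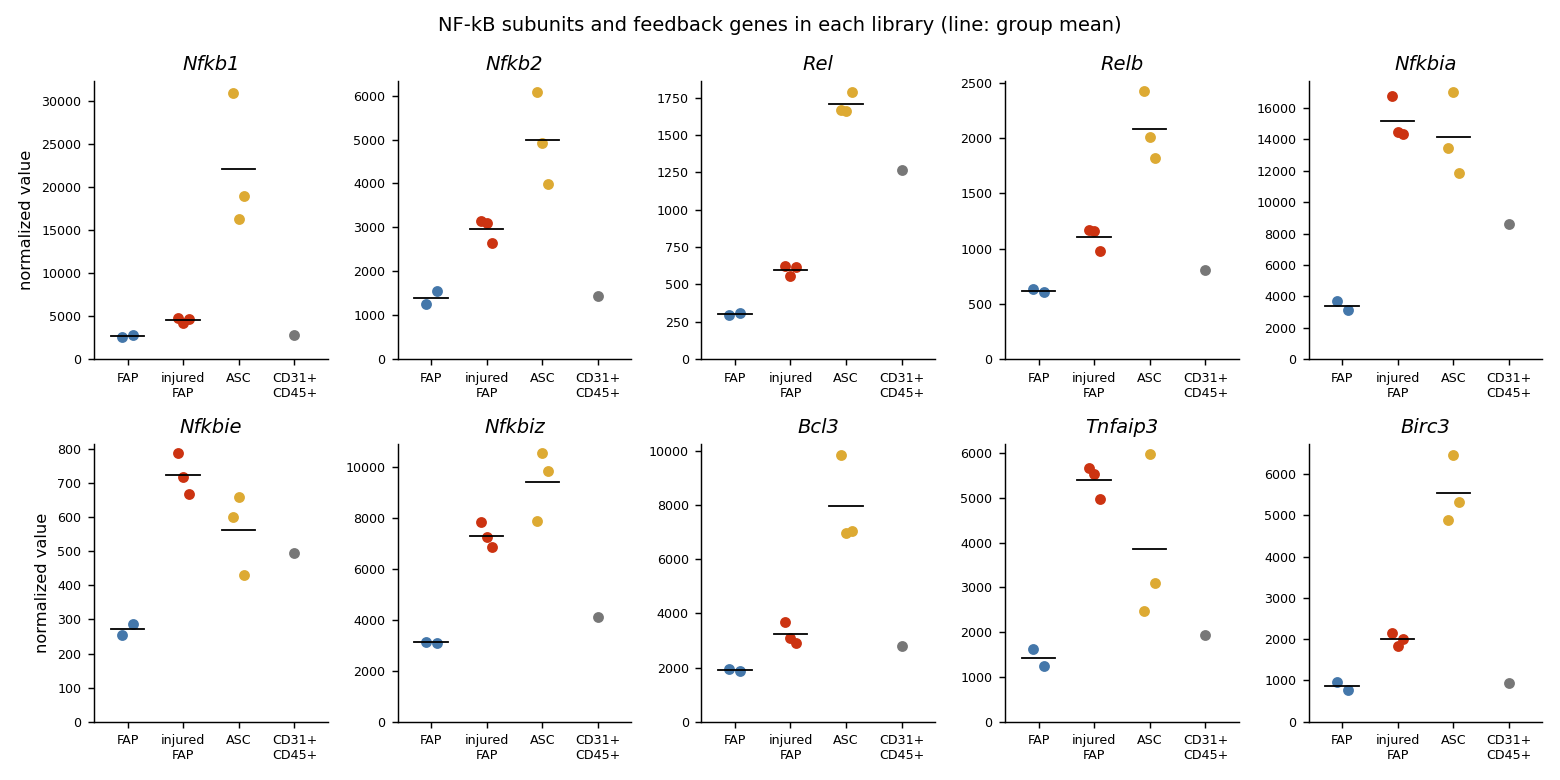
Normalized values (linear axes from 0) of the 10 genes in each library of FAPs, injured FAPs, ASCs and CD31+CD45+ cells, 1 point per library, with a line at the mean of each group of 2 or 3 libraries. FAPs are the lowest of the 3 stromal groups for each gene, and injured FAPs reach the ASC level for Nfkbia, Nfkbie and Tnfaip3, with Nfkbia at 14348 to 16752 in injured FAPs and 11875 to 17030 in ASCs.

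The libraries of a group did not share 1 order. In ASCs, replicate 1 had the highest value of 4 members (Nfkb1, Nfkb2, Relb and Bcl3) and replicate 2 that of 5 (Nfkbia, Nfkbie, Nfkbiz, Tnfaip3 and Birc3). Among injured FAPs, replicate 1 had the highest value of all 10. Injured FAP replicate 2, which had the highest sum of leukocyte markers, had the highest value of no member. The part of leukocyte RNA in the members' values was not tested. The same count over all genes was not made. The members had between 268 and 23451 reads in each of the 8 libraries, the fewest for Nfkbie in a FAP library and the most for Nfkb1 in an ASC library.

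The first comparison asks what glycerol injury changes in FAPs after 1 day. Each of the 10 members had a higher mean after glycerol. The rise was steepest for the inhibitors Nfkbia (4.46-fold) and Tnfaip3 (3.77-fold), intermediate for Nfkbie (2.67-fold), Nfkbiz (2.35-fold) and Birc3 (2.32-fold), and smallest for the subunits, from 1.69-fold for Nfkb1 to 2.12-fold for Nfkb2, and for Bcl3 (1.69-fold). By limma with Benjamini-Hochberg adjustment over 13601 genes, 10 of 10 were called higher (adjusted p of less than 0.05 and a log2 fold change of more than 0.58 in size), where 52.6% of all genes were called, 24.9% higher and 27.7% lower. The median log2 fold change of the members was 1.16 and that of all genes tested -0.05. In bulk RNA, a change in the share of cells that express a gene and a change in the RNA per cell cannot be told apart.

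For Nfkbia the log2 fold change was 2.16 (SE 0.16, adjusted p 1.82e-06), and for Tnfaip3 it was 1.92 (SE 0.29, adjusted p 0.000233), both higher in 3 of 3 injured libraries than in either FAP library. Among the subunits the log2 fold changes were 1.09 for Nfkb2 (adjusted p 0.000277), 0.99 for Rel (1.91e-05), 0.83 for Relb (0.000384) and 0.76 for Nfkb1 (SE 0.22, 95% interval 0.27 to 1.24, adjusted p 0.0116). The 95% interval of Nfkbia, 1.81 to 2.50, lay above those of all 4 listed subunits, the highest of which ended at 1.47 (Nfkb2). The difference between genes was not tested. Without FAP replicate 1, Nfkb1 was no longer called (log2 fold change 0.70, adjusted p 0.0739), which left 9 of 10. No other library left out changed a call of these 10 genes in this comparison. With equal library totals, an alternative chosen after seeing the data, the median of all genes moved to 0.08 and all 10 were still called.

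The second comparison sets ASCs of the adipose tissue beside FAPs of the muscle, both after NaCl. All 10 members were higher in ASCs, most of all Nfkb1 (8.24-fold), Birc3 (6.45-fold) and Rel (5.68-fold), and least Nfkbie (2.08-fold) and Tnfaip3 (2.69-fold). By limma 10 of 10 were called higher, where 47.2% of all genes were called, 23.4% higher and 23.8% lower. Their median log2 fold change was 1.93, beside 0.005 for all genes tested. The log2 fold change was 2.99 for Nfkb1 (SE 0.22, adjusted p 2.16e-06), 2.69 for Birc3 (SE 0.14, adjusted p 2.96e-07) and 2.50 for Rel (SE 0.10, adjusted p 8.37e-08), each higher in 3 of 3 ASC libraries. Nfkbie (1.03, SE 0.18, adjusted p 0.000615) and Tnfaip3 (1.33, SE 0.29, adjusted p 0.0028) had the smallest log2 fold changes. This comparison shares its FAP libraries with the first one, so a low value in those libraries enters both.

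The scaling of the libraries bears on this comparison. With every library set to the same total of values, the median of all genes moved to -0.56 in ASCs against FAPs, and all 10 members still lay above that median. Nfkbie (log2 fold change 0.46, adjusted p 0.0544) and Tnfaip3 (0.77, adjusted p 0.0548) were then not called, which left 8 of 10. The share of all called genes that were higher in ASCs was 49.6% as deposited, 37.8% with a common 75th percentile (median of all genes -0.19) and 20.1% with equal totals. The total of values per library was 30975894 to 36203055 in ASCs and 22871402 and 22733684 in FAPs.

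The third comparison sets injured FAPs directly beside ASCs and asks how far the members differ between these groups. The 4 listed subunits, Bcl3 and Birc3 were lower in injured FAPs, while Nfkbia, Nfkbie, Nfkbiz and Tnfaip3 did not pass the test. By limma 6 of 10 were called lower and 0 higher, where 50.8% of all genes were called, 25.0% higher and 25.8% lower. With an unadjusted p under 0.05, 1 member was called higher (Tnfaip3), and edgeR and DESeq2 called 0 higher. The median log2 fold change was -0.83 over the members and 0.021 over all genes tested.

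Nfkb1 was 4.88-fold higher in ASCs than in injured FAPs (log2 fold change -2.23, SE 0.20, adjusted p 4.19e-06), Rel 2.85-fold (-1.51, SE 0.09, adjusted p 3.72e-07), Birc3 2.78-fold (-1.47, SE 0.13, adjusted p 4.17e-06) and Bcl3 2.47-fold (-1.29, SE 0.14, adjusted p 2.17e-05). These 4 calls were made under all 21 alternatives. Relb (-0.91, adjusted p 7.9e-05) and Nfkb2 (-0.74, adjusted p 0.00153) lost their call with equal library totals, at -0.21 and -0.040, where the median of all genes moved to 0.71. Nfkb2 also lost it with quantile normalization, at -0.41.

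The 4 members that were not called had intervals around or near 0. The 95% interval of the log2 fold change was -0.19 to 0.43 for Nfkbia, 0.03 to 0.74 for Nfkbie, -0.61 to -0.10 for Nfkbiz and 0.01 to 1.17 for Tnfaip3, with adjusted p of 0.473, 0.0531, 0.0194 and 0.0696 from limma. Nfkbiz had an adjusted p under 0.05 and a fold change within the threshold. Tnfaip3 depended on 1 library: without ASC replicate 2 its log2 fold change was 0.96 (adjusted p 0.000198). It was also called higher in injured FAPs with a common 75th percentile (0.71, where the median of all genes was 0.14), with quantile normalization (0.92) and with equal totals (1.29). Nfkbie was called higher with equal totals (1.08). Nfkbia was called higher with quantile normalization (0.83) and equal totals (0.82), and Nfkbiz changed sign under both (0.15 and 0.34). With equal totals the median of all genes was 0.71, so Nfkbiz still lay below it, and 81.3% of all genes called were higher in injured FAPs, beside 49.3% as deposited.

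**Figure D2:**
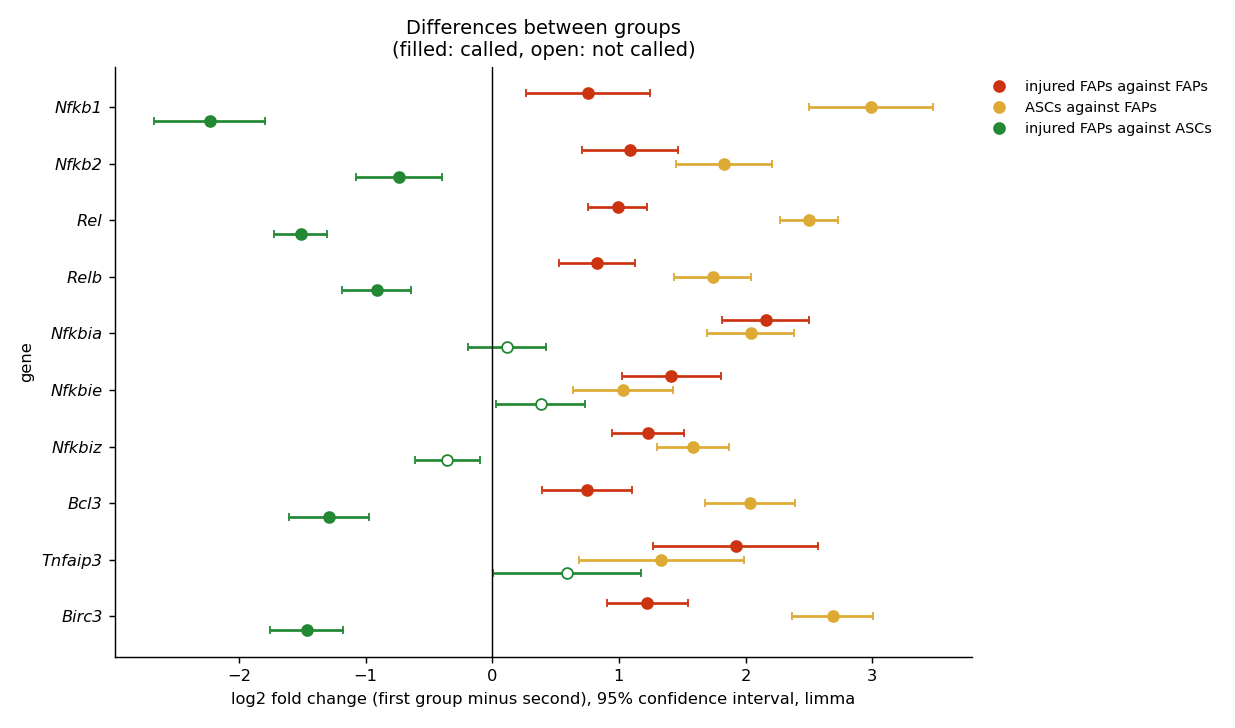
Log2 fold changes (x axis, first group minus second) of the 10 genes (y axis) in the 3 comparisons by limma, with 95% confidence intervals as bars, filled points for genes called and open points for genes not called. The subunits, Bcl3 and Birc3 lie left of 0 in injured FAPs against ASCs, down to -2.23 for Nfkb1, while Nfkbia lies at 2.16 in injured FAPs against FAPs and at 2.04 in ASCs against FAPs.

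Levels of different genes were compared per length, as normalized values per kb of annotated exons. On this scale Nfkbia was the most abundant member in every group, with a mean of 2117 in FAPs, 9438 in injured FAPs and 8775 in ASCs. Rel was the least abundant in FAPs (40.2) and injured FAPs (80.0), and Nfkbie in ASCs (185, below 228 for Rel, with no overlap of the libraries). Nfkbia was followed by Bcl3 in FAPs (773) and in ASCs (3214), and by Nfkbiz in injured FAPs (1454), where Bcl3 had 1304. In injured FAPs the lowest Nfkbiz library (1362) was below the highest Bcl3 library (1491), so these neighbours overlapped.

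The makeup of the subunit transcripts differed between the 3 groups. Shares of the 5 subunits, from values per kb, do not depend on how a library is scaled, and they were computed after the members' values were seen, with no test. Rela made up 59.7% and 56.5% in FAPs, 38.7%, 39.0% and 38.8% in injured FAPs and 40.1%, 42.8% and 45.7% in ASCs. Nfkb2 made up 16.0% and 19.1% in FAPs, 28.7%, 29.6% and 27.2% in injured FAPs and 16.8%, 19.4% and 15.0% in ASCs. Nfkb1 made up 12.5% and 13.2% in FAPs, 16.6%, 15.1% and 18.2% in injured FAPs and 32.4%, 24.4% and 27.1% in ASCs. So a lower share of Rela went with a higher share of Nfkb2 in injured FAPs and with a higher share of Nfkb1 in ASCs, with no overlap between groups for either gain. Relb followed Nfkb2, with 11.9% to 13.1% in injured FAPs, 8.88% and 9.55% in FAPs and 7.90% to 9.37% in ASCs. Rel had the smallest share in each of these libraries, from 2.30% to 4.12%.

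**Figure D3:**
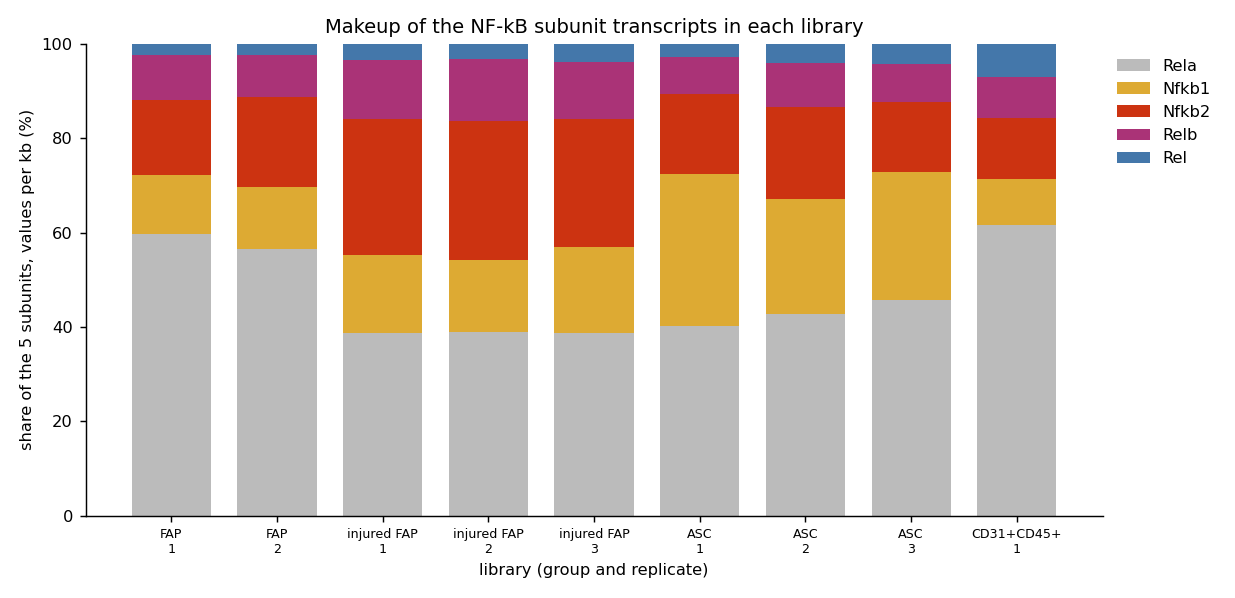
Share of each NF-kB subunit gene (stacked bars, percent of the summed normalized values per kb of Rela, Nfkb1, Nfkb2, Relb and Rel) in each of the 9 libraries. Nfkb2 takes 27.2% to 29.6% in injured FAPs and at most 19.4% in the FAP and ASC libraries, and Nfkb1 takes 24.4% to 32.4% in ASCs and at most 18.2% in the FAP and injured FAP libraries.

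Ratios within a library are also free of its scaling and set Nfkbia against 2 subunit genes. They too were chosen after the values were seen. The ratio of Nfkbia to Nfkb1 was 1.44 and 1.12 in FAPs, 3.50, 3.50 and 3.10 in injured FAPs and 0.436, 1.05 and 0.625 in ASCs. The ratio of Nfkbia to Rela, whose protein IkB-alpha binds, was 1.18 and 1.03 in FAPs, 5.88, 5.32 and 5.68 in injured FAPs and 1.38, 2.35 and 1.46 in ASCs. Among FAPs, injured FAPs and ASCs, both ratios were highest in injured FAPs, with no overlap between these groups. The CD31+CD45+ library had 3.05 for Nfkbia to Nfkb1, just below the injured FAP libraries, and 1.89 for Nfkbia to Rela. Both Tnfaip3 to Birc3 (2.65, 3.0 and 2.48) and Nfkbiz to Bcl3 (2.12, 2.33 and 2.37) were also highest in injured FAPs, with 1.68 and 1.64 for the first and 1.60 and 1.65 for the second in FAPs. ASCs had 0.509 to 0.927 for Tnfaip3 to Birc3 and 0.796 to 1.51 for Nfkbiz to Bcl3. The ratio of Nfkb2 to Relb varied less, from 1.98 to 2.70 over the 8 libraries. Not every ratio was highest in injured FAPs. Nfkb1 to Rela was 2.23 to 3.17 in ASCs, 1.52 to 1.84 in injured FAPs and 0.819 and 0.915 in FAPs. Nfkbia to Nfkbie was 22.5 to 27.7 in ASCs, 20.2 to 21.5 in injured FAPs and 14.5 and 10.9 in FAPs.

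**Figure D4:**
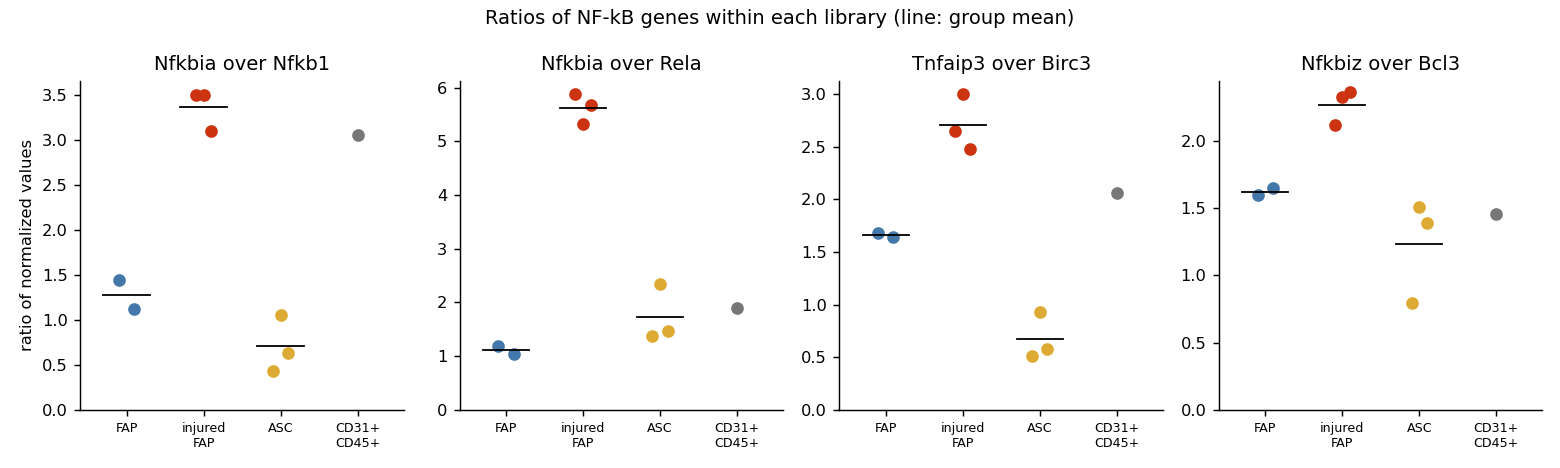
Ratios of normalized values within each library (linear axes from 0) for Nfkbia over Nfkb1, Nfkbia over Rela, Tnfaip3 over Birc3 and Nfkbiz over Bcl3, 1 point per library with lines at group means. Injured FAPs lie above FAPs and ASCs in each panel, with Nfkbia over Rela at 5.32 to 5.88 against 1.03 to 2.35.

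The rest of the pathway was followed through 85 further genes in 7 lists, of which 77 were tested. In injured FAPs against FAPs, 36 (46.8%) were called higher and 11 (14.3%) lower by limma, beside 24.9% and 27.7% of all genes, with a median log2 fold change of 0.39. In ASCs against FAPs, 41 (53.2%) were higher and 8 (10.4%) lower, beside 23.4% and 23.8%, with a median of 0.91. Between injured FAPs and ASCs, 13 (16.9%) were higher and 28 (36.4%) lower in injured FAPs, beside 25.0% and 25.8%, with a median of -0.20. The 36 and the 13 include Il1b, Tnfsf11 and Nfkbid. These genes passed the filter on low values through injured FAPs, so both counts describe the filter as well. With equal library totals the pathway counts became 35 higher and 20 lower in ASCs against FAPs, and 35 higher and 11 lower in injured FAPs against ASCs. The share of all called genes that were higher was then 20.1% and 81.3%, so these counts moved with the table as a whole. With a common 75th percentile the last comparison had 18 higher and 23 lower, where 56.4% of all called genes were higher.

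Of the other subunit and IkB genes, Rela was not called in injured FAPs against FAPs (log2 fold change -0.19, SE 0.13, adjusted p 0.193) and was higher in ASCs than in FAPs (1.43, SE 0.13, adjusted p 6.51e-06) and than in injured FAPs. Nfkbib, which encodes IkB-beta, had normalized values of 580 and 477 in FAPs, 1089, 821 and 937 in injured FAPs and 2631, 2200 and 1972 in ASCs, and it was called higher in both comparisons with FAPs (log2 fold changes 0.84 and 2.10). Nfkbid was at 0 in both FAP libraries and at 23.5, 69.0 and 19.1 in injured FAPs, highest in replicate 2. Nfkbid passed the filter on low values through injured FAPs, with a mean of 37.2 there and 9.04 in ASCs.

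Of 9 ligand genes 4 passed the filter on low values. Il1b and Tnfsf11 passed it through injured FAPs, with means of 122 and 88.4 there and at most 1.28 and 9.92 in FAPs and ASCs. The number of ligands called higher therefore describes the filter as well. Tnf and Tnfsf12 were lower in injured FAPs than in FAPs. Il1b, which encodes the cytokine IL-1 beta, had normalized values of 43.9, 283 and 38.9 in injured FAPs and 0 in both FAP libraries, and Tnf had 18.8, 69.0 and 17.5 against 82.7 and 125. Both were highest among injured FAPs in replicate 2, the library with the highest leukocyte sum, and in the CD31+CD45+ library they had 1103 and 568. The part of leukocyte RNA in these values was not tested. Tnfsf12, which encodes TWEAK, fell from 2301 and 2103 in FAPs to 794, 652 and 660 in injured FAPs (log2 fold change -1.65, SE 0.14, adjusted p 5.88e-06).

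Of 10 receptor genes tested, 7 were called higher in ASCs than in FAPs (23.4% of all genes) and 3 were not called. In injured FAPs against ASCs 5 were called lower (25.8% of all genes) and 5 were not called, and with equal library totals 2 were higher and 3 lower. The 5 include Tnfrsf1b, the gene of TNF receptor 2 (log2 fold change -2.13, adjusted p 8.8e-05), and Tlr2 (-2.21, adjusted p 4.28e-07). In injured FAPs against FAPs 3 were higher (Il1r1, Cd40 and Tnfrsf12a), near the 24.9% of all genes, and 1 lower (Tlr4, at -0.64, and not called at -0.51 with equal library totals). Cd40 (log2 fold change 2.39, SE 0.88) had few reads, with 31, 19 and 19 in injured FAPs and 0 and 12 in FAPs. Il1r1, the gene of the IL-1 receptor, had normalized values of 3391 and 2549 in FAPs, 8724, 8750 and 8406 in injured FAPs and 29411, 17613 and 21017 in ASCs.

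Of 17 adaptors and proximal kinases, 2 (11.8%) were higher and 4 (23.5%) lower in injured FAPs than in FAPs, beside 24.9% and 27.7% of all genes, with Ticam1 (the TLR3 and TLR4 adaptor TRIF, log2 fold change -1.16), Traf5 (-1.04), Tab1 (-0.99) and Irak2 (-0.94) falling. Tab1 had an adjusted p of 0.0441 and was not called with equal totals (0.0948). In ASCs against FAPs 4 (23.5%) were higher and 5 (29.4%) lower, beside 23.4% and 23.8% of all genes, with Tab1 (-1.58), Irak2 (-1.40), Tradd (-1.08) and Ticam1 (-0.97) among the latter. Irak3, which encodes the inhibitory kinase IRAK-M, had normalized values of 17099, 11744 and 12937 in ASCs, 1941 and 1630 in FAPs and 1570, 1442 and 1262 in injured FAPs, and its log2 fold change of -3.28 (SE 0.15, adjusted p 5.03e-08) was the largest fall among pathway genes with a mean of at least 100 between injured FAPs and ASCs.

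The IkB kinases phosphorylate IkB and so mark it for degradation. Chuk, which encodes IKK-alpha, was higher in injured FAPs than in FAPs (log2 fold change 0.61, adjusted p 0.00191) and Ikbkb, which encodes IKK-beta, was lower (-0.64, adjusted p 0.000359). Both lie near the threshold: Chuk was not called with quantile normalization (0.55) or a common 75th percentile (0.53), and Ikbkb was not called with equal totals (-0.51). Ikbkg, the gene of the regulatory subunit NEMO, was not called in any of the 3 comparisons as deposited, and with equal totals it was called lower in ASCs against FAPs (-1.13) and higher in injured FAPs against ASCs (1.11), which are the directions in which that scaling moves all genes. A common 75th percentile also added calls in ASCs against FAPs, with 3 of the 6 genes of this list lower, beside 1 as deposited. Map3k14, which encodes the NF-kB inducing kinase of the alternative pathway, had normalized values of 783 and 764 in FAPs, 561, 539 and 409 in injured FAPs and 270, 577 and 397 in ASCs, and it was called lower in ASCs against FAPs (-0.97, adjusted p 0.00927) and not in injured FAPs against FAPs (-0.63, adjusted p 0.0556), where quantile normalization (0.0144) and a common 75th percentile (0.0448) called it lower. Ikbke fell in injured FAPs (-0.91, adjusted p 0.00423). Of 10 ubiquitin enzymes and partners tested, 3 were higher (Otulin, Tnip1 and Zc3h12a) and 2 lower (Rnf31 and Tnip2) in injured FAPs than in FAPs, beside 24.9% and 27.7% of all genes, and Rnf31 was not called with equal totals. In ASCs against FAPs 2 were higher (Tax1bp1 and Zc3h12a), beside 23.4% of all genes, and Tax1bp1 was not called under any of the 3 other scalings.

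Of 27 known NF-kB targets tested, 23 were called higher in injured FAPs than in FAPs, beside 24.9% of all genes, with a median log2 fold change of 2.99. The other 4 were not called, 3 of them with a negative log2 fold change (Irf1, Gadd45b and Bcl2l1), and 2 of these were called lower with quantile normalization and 1 with a common 75th percentile, where 22 were higher. In ASCs against FAPs 23 were higher, beside 23.4% of all genes, and 1 lower (Bcl2l1, -1.51), with a median of 2.51, and with equal totals 22 were higher and 3 lower. Among pathway genes whose mean reached 100 and whose groups did not overlap, chemokine genes made up 5 of the 6 largest rises in injured FAPs, with the acute phase gene Saa3 (5.21) as the other one, and 6 of 6 in ASCs. Cxcl2, which encodes a ligand that attracts neutrophils, had normalized values of 21.9 and 42.3 in FAPs, 6843, 5833 and 6877 in injured FAPs and 5657, 4390 and 3828 in ASCs. Ccl2, which encodes a ligand that attracts monocytes, had 1079 and 964 in FAPs, 39116, 31060 and 38199 in injured FAPs and 70413, 55798 and 41304 in ASCs. The log2 fold changes in injured FAPs against FAPs were 10.32 for Cxcl5 (SE 0.76, adjusted p 2e-06), 7.69 for Cxcl2 (SE 0.24, adjusted p 5.97e-08), 5.14 for Ccl2 (SE 0.20, adjusted p 1.88e-07), 4.56 for Ccl7 (SE 0.30, adjusted p 1.12e-06) and 3.88 for Cxcl1 (SE 0.20, adjusted p 3.95e-07). The 1 added in log2(value + 1) shrinks the change of genes that are low in 1 group, but these fitted values are no lower bounds of it.

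In injured FAPs set directly against ASCs, 8 of the 27 targets (29.6%) were higher and 11 (40.7%) lower, with a median log2 fold change of -0.006, beside 25.0% and 25.8% of all genes. The counts became 12 higher and 7 lower with quantile normalization, 11 and 8 with a common 75th percentile and 14 and 5 with equal totals, so which direction held more targets depended on the scaling. Cxcl5, another neutrophil chemokine gene, had normalized values of 8.56 and 42.3 in FAPs, 24537, 25243 and 28574 in injured FAPs and 1234, 1378 and 217 in ASCs (5.18 on the log2 scale between injured FAPs and ASCs, SE 0.68, adjusted p 6.99e-05). Saa3 (3.52), Lcn2 (3.31), Lif (1.59), Bcl2l1 (1.14) and Vcam1 (0.63) were the next largest rises among genes with a mean of at least 100. Saa3 and Lcn2 were highest in injured FAP replicate 2, the library with the highest leukocyte sum. In the CD31+CD45+ library they had 0 and 167.9, and in the injured FAP libraries at least 359.4 and 559.8. The part of leukocyte RNA in the values of Saa3 and Lcn2 was not tested. Cxcl10, a chemokine gene induced by interferon, had 12574, 10607 and 14837 in ASCs, 2748, 1669 and 2181 in injured FAPs and 242 and 198 in FAPs, and with Mmp3 (-2.11) and Irf1 (-1.91) it was among the largest falls (-2.54, SE 0.18, adjusted p 9.72e-07).

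**Figure D5:**
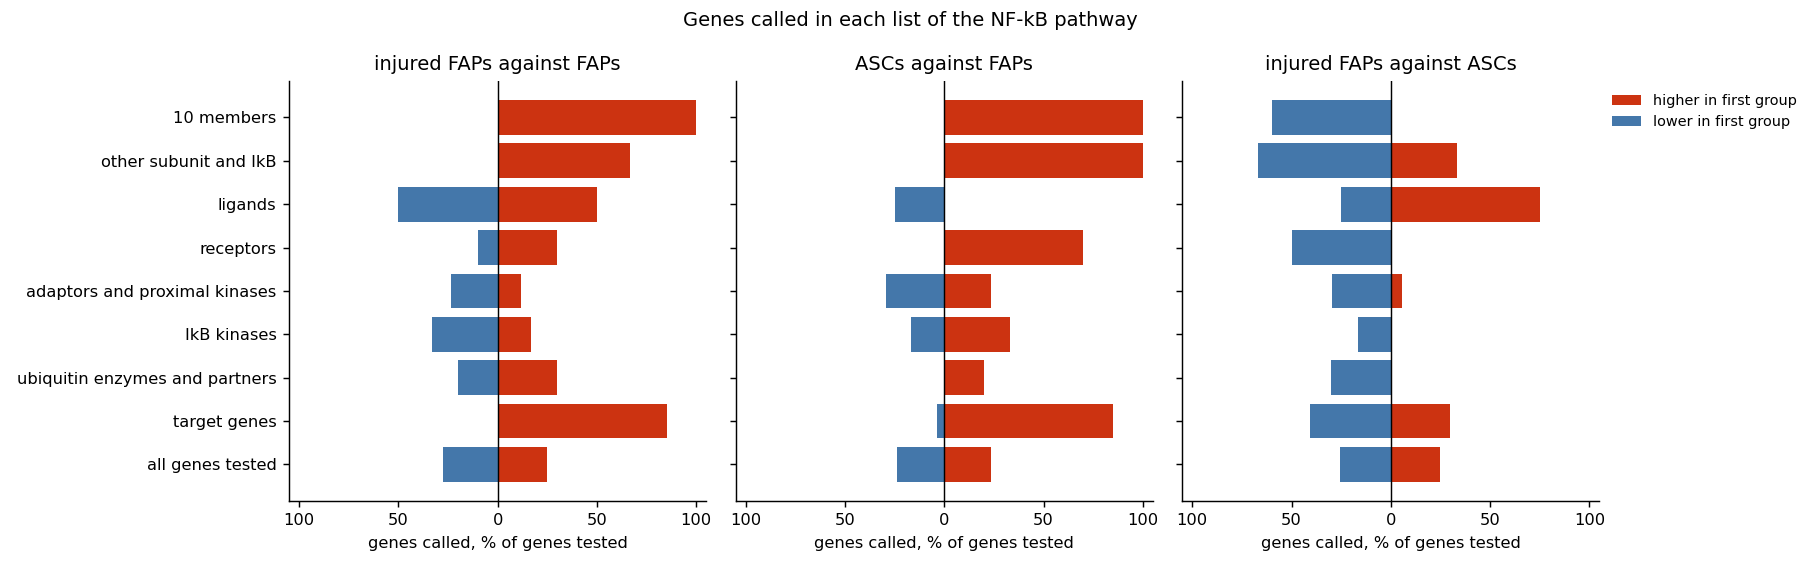
Genes called higher (right) and lower (left) in the first group of each comparison, as percent of the genes tested in each list (x axis), for the 10 members, the 7 pathway lists and all genes tested (y axis). The members and the target genes extend mostly to the right in both comparisons with FAPs, with 10 of 10 and 23 of 27 called higher, beside 24.9% and 23.4% of all genes.

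The 5 genes whose levels over the 8 libraries were most like the mean of the members, among 10583 genes with a mean of at least 100, were Dbi (Pearson's r 0.992), Vegfd (0.991), Avpr1a (0.990), Nav3 (0.990) and Psme1 (0.990). The r is on the scale of log2(value + 1) and describes 8 libraries that fall into 3 groups. Vegfd, which encodes a lymphatic growth factor, had mean normalized values of 276 in FAPs, 1402 in injured FAPs and 3904 in ASCs, and Psme1, which encodes a proteasome activator subunit, had 892, 1425 and 1922.

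Other gene lists moved beside the members. Of 14 immediate early and heat shock genes that also respond to tissue digestion, 11 were lower in injured FAPs than in FAPs and 3 were not called, beside 27.7% of all genes lower. In ASCs against FAPs 5 were higher, 4 lower and 5 not called (1 higher and 5 lower with quantile normalization, 2 and 5 with equal totals), beside 23.4% of all genes higher and 23.8% lower. Their summed normalized values were 798731 and 698500 in FAPs, 340067, 314740 and 291089 in injured FAPs and 822723, 963134 and 1070761 in ASCs, where Fosb alone had a mean of 274401 (39610 in FAPs). In injured FAPs against FAPs this list went the opposite way to the members, and between injured FAPs and ASCs 11 were lower in injured FAPs and 0 higher, where 25.8% of all genes and 6 members were lower. The 11 became 6 with quantile normalization, with 1 higher, and 6 with equal totals. Of 9 leukocyte markers tested, injured FAPs had 7 higher than FAPs did, and ASCs had 6, beside 24.9% and 23.4% of all genes. Each of the 7 was at 0 in both FAP libraries. Of these, Itgb2, Tyrobp, Fcer1g and Laptm5 passed the filter on low values through injured FAPs, so the number called higher describes the filter as well. Between injured FAPs and ASCs, 7 of the 9 were higher in injured FAPs and 1 lower, beside 25.0% and 25.8% of all genes. Without injured FAP replicate 2, all 10 members were still called higher in injured FAPs than in FAPs. Injured FAP replicates 1 and 3 also had all 12 leukocyte markers above 0, so leaving out replicate 2 does not remove the difference in these markers. Smooth muscle and pericyte markers summed to 31668 and 29608 in FAPs, 18063 to 18968 in injured FAPs and 8121 to 10058 in ASCs (most abundant Pdgfrb in each of these groups, with 7395 to 8888 in ASCs). By limma 6 of 6 were lower in ASCs than in FAPs (median log2 fold change -4.52), beside 23.8% of all genes. In injured FAPs 4 of 6 were lower than in FAPs, beside 27.7% of all genes. Rgs5 had 6148 and 4583 in FAPs, 1718 to 2091 in injured FAPs and 40.2 to 100 in ASCs. Satellite cell and muscle fibre markers summed to 711 and 933 in FAPs, 218 to 284 in injured FAPs and 109 to 155 in ASCs, with Pax7 at 0 in all 3 ASC libraries. Endothelial markers summed to 6551 and 4552 in FAPs (Tek most abundant), 1653 to 2099 in injured FAPs (Cdh5) and 5181 to 6994 in ASCs, of which Tek made up 4841 to 6700. By limma 3 of 9 were higher and 5 lower in ASCs than in FAPs (median log2 fold change -2.81), beside 23.4% and 23.8% of all genes. In injured FAPs against FAPs 2 were called higher and 5 lower, beside 24.9% and 27.7% of all genes. The 2 were Emcn and Cldn5, at 0 in both FAP libraries. They passed the filter on low values through injured FAPs, so their count describes the filter as well. The part of these cell types in the members' differences was not tested.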

How the data were processed

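RNA-seq of sorted mouse cells was analysed in 9 libraries, grouped by the sample labels. The 10 members and all gene lists were chosen with earlier results of these data known. Per the submitters' processing notes and the study's methods, the authors checked reads with FastQC, aligned them to mm10 with HISAT2, used featureCounts of Subread to count genes and named DESeq2 for their tests. The deposited values are a signal per gene and library that the authors normalized, and their scaling is not given in the sources used here. As whole reads (tolerance 0.01 reads) over 1 size factor per library, 100% of the values were recovered. The factor was 0.759 to 0.883 for ASCs, 1.05 and 1.06 for FAPs, 1.27 to 1.31 for injured FAPs and 0.637 for the CD31+CD45+ library. The ASC libraries held 27349184 to 27481573 reads, the FAP libraries 24052508 and 24164447, the injured FAP libraries 26698572 to 27028114 and the CD31+CD45+ library 13091077. Of the table, 2 empty columns were not used.

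Values were put on the scale of log2(value + 1) and fitted by limma 3.58.1 (R 4.3.3), with the 3 groups of 8 libraries in a single model (5 residual degrees of freedom), a trended prior variance and p-values adjusted by Benjamini-Hochberg over 13601 genes. Libraries of a group may share a pool of animals per the study's reporting summary, so the p-values measure the spread between these libraries, which may be technical. On the recovered reads, edgeR 4.0.16 called 7303 genes and DESeq2 1.42.0 called 7227 between injured FAPs and FAPs (limma 7153), 6450 and 6412 between ASCs and FAPs (limma 6416), and 7000 and 6865 between injured FAPs and ASCs (limma 6909). The code was tested on simulated data. The alternatives concerned the pseudocount, the filter on low values, the scaling, the thresholds, which groups are fitted together, a replicate term, the tool and leaving out each library.

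Genes named beside the members are, for every comparison, the 6 largest rises and the 6 largest falls of the pathway lists among called genes whose groups did not overlap and whose mean reached 100, with Rela, Nfkbib, Chuk, Ikbkb, Ikbkg and Map3k14 always. Other pathway genes named (Nfkbid, Il1b, Tnfsf11, Tnf, Il1r1, Cd40, Tnfrsf12a, Tlr4, Otulin, Tnip1, Tnip2, Zc3h12a, Rnf31, Tax1bp1 and Gadd45b) were chosen after their values were seen. Likeness was Pearson's r with the mean of the members' standardized log2 values. Exon lengths and positions came from GENCODE M21, and tables and figures from Python 3.11.15.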

Additional observations from a re-analysis of the deposited data

Results flagged for a closer look

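The CD31+CD45+ library of the injured quadriceps entered no comparison and has no replicate, so its values are given as they are. Of the 10 members, 8 were above the highest FAP library after NaCl, as were 50.6% of all genes tested. Below the lowest injured FAP library were 9 of 10 (47.9% of all genes), and below the lowest ASC library 9 of 10 (42.5%). The normalized values in this library were 8626 for Nfkbia (highest FAP library 3695), 4106 for Nfkbiz (3133) and 494 for Nfkbie (287). Rel had 1268, above the highest injured FAP library as well, and below the lowest ASC library (1662). Relb had 805 (highest FAP library 633), Bcl3 2803 (1952) and Tnfaip3 1930 (1617). Nfkb1, at 2828, is counted among the 8 and was nearly level with the highest FAP library (2785). Nfkb2 (1441) and Birc3 (935) were below the highest FAP library. This library holds another mixture of cells than the FAP libraries, and what sets its values apart was not tested.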

How the results depend on the processing

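Over 21 alternatives and 3 comparisons, 608 of 630 recomputed values of the members kept their direction and their side of the threshold, 12 lost their call, 8 gained one and 2 changed sign. The changes of sign were Nfkbiz in injured FAPs against ASCs, at 0.15 with quantile normalization and 0.34 with equal library totals. Equal totals moved the median of all genes from 0.021 to 0.71 by construction, and Nfkbiz stayed below it. With quantile normalization that median was 0.033, and the cause of the change was not tested. With a log2 fold change beyond 1, which by construction calls fewer genes, 6 members were called in injured FAPs against FAPs, 26 genes of the pathway lists in injured FAPs against ASCs, and 4622, 4177 and 4455 of all genes in injured FAPs against FAPs, ASCs against FAPs and injured FAPs against ASCs. With 1 library left out, the members called were 9 to 10, 10 to 10 and 6 to 7 in the same order. Without a FAP library, the lone FAP library is assumed to vary like the other groups. With the replicate block, 10, 10 and 6 members were called and no member's call changed. The labels do not say whether the replicate numbers pair the samples. Deviations from the group means correlated at -0.054 to 0.045 in 7 pairs of libraries with the same number. The 14 other pairs had -0.12 to 0.12. The deviations of 2 FAP libraries mirror each other by construction, so these correlations cannot decide whether samples are paired. The members had at least 268 reads in each of the 8 libraries, and replicates differed by more than counting noise (chi-square per degree of freedom of 10.9 to 69.4 over all genes compared). For genes with few reads, 3 reads are worth a value of 2.29 to 4.71 depending on the library.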
